A study of Caenorhabditis elegans with 28 samples.

Results

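The mir-35 to mir-41 cluster of Caenorhabditis elegans encodes 7 microRNA (miRNA) hairpins, each of which can give a mature 5p and a mature 3p arm. Its members were chosen by name as the rows of miR-35, miR-36, miR-37, miR-38, miR-39, miR-40 and miR-41, which gave 14 of the 437 arms measured. Small RNAs were sequenced from whole larvae of strain N2, which is wild type, and strain HW3527, which carries the tm2321 allele of ebax-1 on chromosome IV. Larvae of both strains were synchronised at the L1 stage, plated on food and kept at 25 °C without further treatment, and were collected every hour from 18 to 31 h. There was 1 library per strain and hour, so 14 libraries per strain and 28 in all.

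The mir-35 family acts mainly in the embryo, where its members are redundant with each other, and family members share a seed, the short stretch near the 5′ end of the 3p arm that pairs with target mRNAs. A hairpin yields a duplex of its arms, of which the one loaded into Argonaute (the guide) usually persists and the other (the passenger) is usually lost quickly. EBAX-1, the worm ortholog of mammalian ZSWIM8, recruits substrates to a Cullin-RING ubiquitin ligase. ZSWIM8 acts in target-directed miRNA degradation, in which pairing to a trigger RNA leads to loss of the Argonaute and its miRNA. EBAX-1 also promotes loss of some miRNAs. The study places it in this pathway by analogy only, since no trigger RNA is known in C. elegans. The comparison of the strains asks how the arms of this cluster accumulate over larval hours without EBAX-1.

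Library totals ran from 4938126 to 13223782 counts, and 312 to 349 arms had a read in a library. Levels are given as normalised counts, which are counts divided by the library total and multiplied by the mean total, so each is a share of all miRNA reads. The mutant libraries of 28, 29 and 31 h were the shallowest of that strain, with at most 6125674 counts against at least 6540394 in the others, and also stood apart in the make-up of the cluster. Results that rest on them are given with and without them. Genotypes rest on the labels, since mRNA of ebax-1 was not analysed here. Hours are single libraries and each strain is 1 culture series as far as the labels say, so strain and culture cannot be told apart. The p-values of the fits reflect only how far libraries scatter from a fitted smooth curve, a scatter that may be technical. In RNA of whole larvae, fewer cells of a type and less RNA per cell cannot be told apart.

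In the WBcel235 annotation the cluster spans 797 bp of the plus strand of chromosome II, from 11537608 to 11538404. It lies in intron 2 of the protein-coding gene Y62F5A.9, which is on the opposite strand. The hairpin genes follow each other in the order of their numbers, from mir-35 at 11537608 to 11537704 to mir-41 at 11538308 to 11538404, and are separated by 2 to 61 bp. Each annotated 3p arm is 22 bases long and each 5p arm 22 or 23. Annotated non-coding RNA genes on the same strand cover 23 of the 23 bases of miR-37-5p (Y62F5A.14) and 21 of the 22 bases of miR-39-5p (Y62F5A.15), and reads of the gene and of the arm cannot be told apart by position there. Reads were allowed many genomic hits, and how reads that match several of these similar arms were divided among them cannot be told from the tables.

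The wild-type hours from 18 to 28 h were set against the mutant hours from 21 to 31 h, since the mRNA of the study placed the mutant 3 h behind. Hours matched in this way are named by the wild-type hour. Each of the 7 3p arms was higher in mutant than in wild-type larvae at all 11 matched hours, and their levels in the 2 strains did not overlap in the 11 matched or in all 14 libraries. Of all 406 arms tested, 3.2% lay higher in the mutant without overlap. The summed 3p reads took 0.09% to 0.33% of a wild-type library and 1.15% to 3.17% of a mutant library.

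The 4 abundant 3p arms had similar levels. miR-35-3p had 1719, 3393 and 6900 normalised counts (lowest, median and highest of 11 matched hours) in wild type and 26557, 40019 and 55010 in the mutant. The lowest mutant library was thus above the highest wild-type library by a wide margin. Its mean difference was 3.48 ± 0.06 (SE) on the log2(normalised count + 8) scale, an 11.1-fold difference (limma adjusted p = 5.47e-10), and the difference at single hours ran from 2.30 to 4.56.

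miR-37-3p had 1604, 3281 and 7060 normalised counts in wild type and 25423, 32981 and 42707 in the mutant. Its difference was 3.27 ± 0.06, or 9.63-fold (limma adjusted p = 1.48e-09), with a range of 2.14 to 4.46 over the hours. This arm tracked miR-35-3p closely in wild type, as the correlations below describe.

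miR-39-3p had 1841, 2911 and 5930 normalised counts in wild type and 18722, 37067 and 50382 in the mutant. It differed by 3.33 ± 0.07, or 10.1-fold (limma adjusted p = 4.00e-09), with hourly differences from 2.59 to 4.63. Its highest level among these mutant libraries came at 21 h after plating and its lowest at 31 h after plating.

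miR-36-3p had 1488, 3257 and 5935 normalised counts in wild type and 15440, 27957 and 32425 in the mutant. Its difference of 2.87 ± 0.09, or 7.32-fold (limma adjusted p = 1.03e-07), ran from 2.02 to 4.39 over the hours. The groups were separate here too, although this arm had the lowest mutant level of the 4.

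miR-38-3p and miR-40-3p were of intermediate abundance. miR-38-3p had 333.3, 834 and 1223 normalised counts in wild type and 5008, 9556 and 11857 in the mutant, and differed by 3.42 ± 0.12 (10.7-fold, limma adjusted p = 3.27e-07). miR-40-3p had 386, 531 and 936 normalised counts in wild type and 2918, 4993 and 5931 in the mutant, and differed by 3.03 ± 0.04 (8.16-fold, limma adjusted p = 2.49e-10). Their groups were also well apart, and the SE of miR-40-3p was the smallest among the 14 arms.

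miR-41-3p was rare. Its wild-type libraries held 0 to 9 reads at the matched hours, or 0, 3.57 and 9.68 normalised counts, and its mutant libraries 10 to 74 reads, or 14.6, 30.9 and 70.8. The gap between the strains was narrow, with 14.6 normalised counts in the lowest mutant library against 13.5 in the highest of all 14 wild-type libraries. Its difference was 1.85 ± 0.23 (limma adjusted p = 0.00501), 3.60-fold with the pseudocount of 8 included, which compresses the change of an arm this rare. The call was lost without the mutant libraries of 28, 29 and 31 h (difference 2.18, adjusted p = 0.0418), with a pseudocount of 32, and in 16 of 22 fits with a library omitted, among them every wild-type library. Adjusted p ranged from 8.59e-17 to 0.0418 over the other settings.

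**Figure D1:**
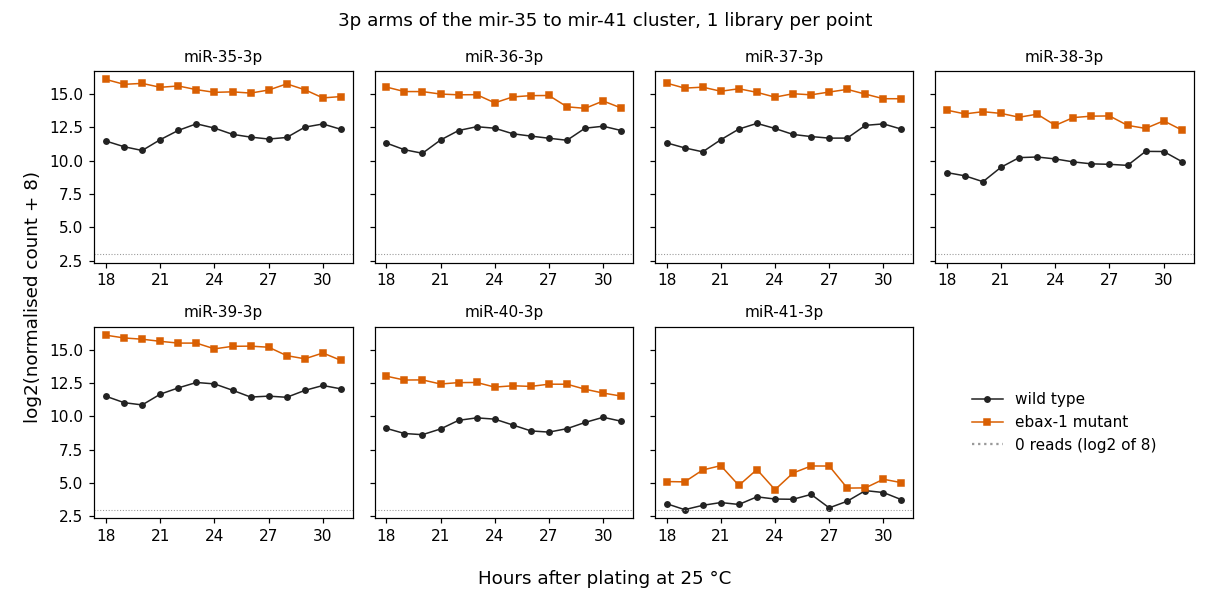
Level of each 3p arm, as log2(normalised count + 8), against hours after plating, 1 library per point, in wild type (black circles) and ebax-1 mutant (orange squares), with a dotted line at 0 reads. The mutant lies above wild type at all 14 hours in each of the 7 arms, with a narrow gap for miR-41-3p, and the wild-type curves of the other 6 rise to highs around 23 and 30 h.

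The 5p arms, which are passengers in most of these hairpins, did not share this offset. For any strain effect, 9 of the 14 members were called (limma F test of the strain terms, adjusted p under 0.01), against 16.5% of all arms tested. These were the 7 3p arms and miR-37-5p, which were higher in the mutant (5.67% of all arms were), and miR-39-5p, which was lower (10.8% of all arms were). The other 5 of the 5p arms did not pass. The median difference was 3.27 for the 3p arms and 0.03 for the 5p arms, against -0.07 for all arms. Tested on the mean difference alone, the same number of 9 members passed, against 30.3% of all arms.

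miR-37-5p had 44.5, 75.2 and 202 normalised counts in wild type and 68.8, 157 and 206 in the mutant at the matched hours. The groups overlapped widely, and 10 of 11 hours were higher in the mutant. Its difference was 0.67 ± 0.09, or 1.59-fold (limma adjusted p = 0.00501). The call was lost without the mutant libraries of 28, 29 and 31 h (0.49, adjusted p = 0.0987), with a pseudocount of 32, and in 12 of 22 fits with a library omitted (wild type 22 to 28 h, mutant 25, 28, 29, 30 or 31 h). Adjusted p ranged from 3.98e-09 to 0.0987 over the other settings.

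miR-39-5p had 37.4, 139 and 567 normalised counts in wild type and 54.6, 107 and 294 in the mutant. The ranges overlapped and 2 of 11 hours were higher in the mutant. It fell by 0.44 ± 0.08 on the log2 scale (limma adjusted p = 0.00931). The call was lost in 10 of 16 other settings, which were TMM factors (adjusted p = 0.0686), DESeq2 size factors, pseudocounts of 1 and 32, splines of 4 and 5 components, the tests of edgeR and DESeq2, a block for matched hour (0.0126) and omission of the mutant libraries of 28, 29 and 31 h (0.0750). It was also lost in 18 of 22 fits with a library omitted, all but those without the mutant library of 21, 22, 23 or 24 h. Adjusted p ranged from 6.76e-09 to 0.577 over the other settings.

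Among the 5p arms that did not pass, miR-41-5p was the most abundant, with 98.1, 168 and 562 normalised counts in wild type and 125, 163 and 416 in the mutant (difference 0.09 ± 0.14, limma adjusted p = 0.419). miR-36-5p had 34.3, 61.5 and 103 normalised counts in wild type and 15.1, 58.7 and 79.2 in the mutant (-0.33 ± 0.12, adjusted p = 0.236). The strains overlapped over most of their range for both arms.

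miR-35-5p had 13.1, 23.4 and 88.8 normalised counts in wild type and 17.8, 27.1 and 48.3 in the mutant (0.03 ± 0.16, limma adjusted p = 0.995). miR-40-5p had 2.08, 17.7 and 47.3 in wild type and 0, 9.96 and 38.4 in the mutant (-0.31 ± 0.09, adjusted p = 0.0222), and passed at lags of 0, 1, 2 and 4 h. miR-38-5p was near the limit of detection, with 0 to 4 reads per wild-type and 0 to 6 per mutant library (0.12 ± 0.10, adjusted p = 0.579). A library with 0 reads of an arm still allows up to 3 counts, covering counting error only. That is 1.90 normalised counts at the greatest depth and 5.08 at the least. A fall or a small rise of miR-38-5p was thus not detectable at this depth.

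**Figure D2:**
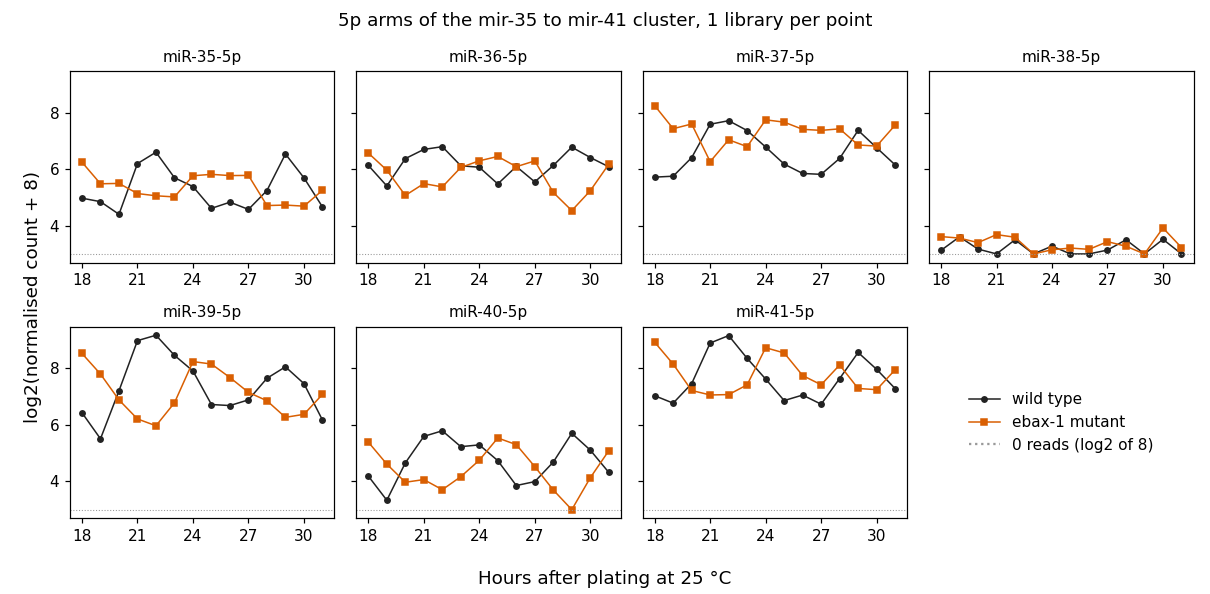
Level of each 5p arm, as log2(normalised count + 8), against hours after plating, 1 library per point, in wild type (black circles) and ebax-1 mutant (orange squares), with a dotted line at 0 reads. The curves of the strains cross repeatedly, with wild-type highs around 22 h, and miR-38-5p stays near the line of 0 reads.

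Since both arms come from the same precursor, the ratio of the 3p to the 5p arm was compared for hairpins whose arms averaged at least 10 normalised counts. It was higher in the mutant for miR-35, miR-36, miR-37, miR-39 and miR-40, while 29.2% of 96 hairpins tested were higher. The difference in log2 ratio was 3.77 ± 0.13 for miR-39 (limma adjusted p = 6.59e-14), 3.44 ± 0.15 for miR-35, 3.34 ± 0.11 for miR-40, 3.21 ± 0.13 for miR-36 and 2.60 ± 0.12 for miR-37. miR-41 met the minimum only through its 3p arm in the mutant, where the arm is high, so its difference of 1.76 ± 0.27 is given as a description. miR-38 was left out by the minimum because of its 5p arm. Of all reads of the cluster, the 5p arms held 1.68% to 9.10% in the 14 wild-type libraries and 0.18% to 0.81% in the 14 mutant libraries, with no overlap. The balance of counts between the arms was not alike among the hairpins. The division of reads among similar arms is unknown, as given above, and its part in this was not tested. In miR-41 the 5p arm outnumbered the 3p arm in both strains, with a median of 178 normalised counts against 4.92 for the 3p arm in wild type and 185 against 28.7 in the mutant (n = 14 hours). The study modelled the 3p arm of miR-41 as the guide in its long time course.

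The size of the 3p difference varied over the hours. For the 3p arms of miR-35 through miR-40 it was largest at the matched hour of 20, when all 6 wild-type levels were at their lowest. There the summed 3p level was 23.2-fold higher in the mutant, and at 23 h, when the wild-type sum was at its highest, 5.34-fold. The median over the 11 matched hours was 8.21-fold. Compared at equal hours after plating, the fold ran from 4.13 at 30 h to 29.3 at 20 h, and each 3p arm was higher in 14 of 14 hours. For the summed 5p arms the fold ran from 0.64 to 1.74 at matched hours and from 0.24 to 3.88 at equal hours after plating.

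A difference that changed over hours beyond a constant offset was called for miR-35-3p (limma adjusted p = 0.00391), miR-37-3p (0.00403) and miR-40-3p (0.00391), against 0.985% of all arms. miR-39-3p (0.0115) and miR-36-3p (0.0307) did not pass. None of the 5p arms was called, while 3 of 7 had an unadjusted limma p under 0.05. These 3 calls are fragile. No member was called without the mutant libraries of 28, 29 and 31 h, with a pseudocount of 1, or with 5 spline components, where 5, 8 and 7 members kept an unadjusted p under 0.05. None was called in 12 of the 22 fits that left out 1 library (wild type 21, 22, 23, 24, 25 or 28 h, mutant 22, 23, 26, 27, 30 or 31 h).

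**Figure D3:**
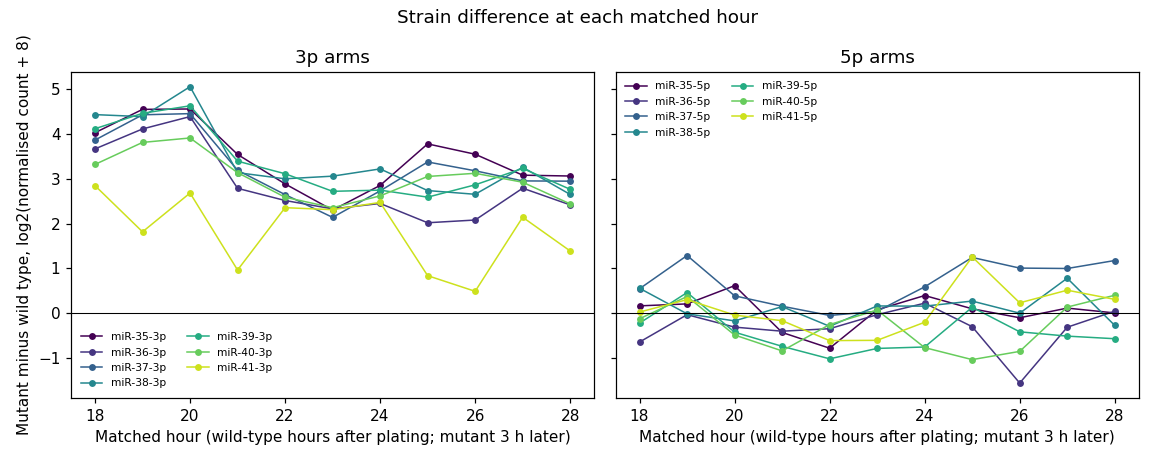
Mutant minus wild type in log2(normalised count + 8) at each of 11 matched hours, for the 3p arms (left) and the 5p arms (right), 1 line per arm and 1 library of each strain per point. The 3p lines of miR-35 to miR-40 lie between 2.02 and 5.06 with highs at 20 h, miR-41-3p between 0.49 and 2.85, and the 5p lines cross 0.

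Many C. elegans transcripts rise and fall with the molting cycle, and the wild-type arms of this cluster also varied over hours. In a fit of a trend and a cycle of 7 h to all 28 libraries, 10 members were called for a cycle in wild type, against 8.37% of all arms. They were the 5p arms of miR-35, miR-37, miR-39, miR-40 and miR-41 and the 3p arms of miR-35, miR-36, miR-37, miR-39 and miR-40. The called 5p arms had fitted peaks between 22.1 and 22.4 h, with amplitudes from 0.94 for miR-35-5p to 1.35 for miR-39-5p on the log2 scale. The called 3p arms had later fitted peaks, between 23.1 and 23.2 h, with smaller amplitudes of 0.59 to 0.68. With a period of 6 h no member was called in wild type, although 11 had an unadjusted p under 0.05.

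In the mutant, 3 members were called for a cycle, miR-36-5p, miR-39-5p and miR-40-5p, against 4.93% of all arms. Their fitted peaks came between 22.0 and 22.2 h on the matched scale, close to those of the 5p arms in wild type. None of the 7 3p arms was called in the mutant with limma, and none had an unadjusted p under 0.05. The fitted amplitudes of the 3p arms of miR-35 through miR-40 were 0.10 to 0.19 there. The count of 3 fell to 2 with TMM factors, DESeq2 size factors, a pseudocount of 1 or a period of 8 h. It also fell to 2 in most fits that left out 1 wild-type library and in some that left out 1 mutant library. It fell to 1 without the mutant library of 18, 21, 22, 25 or 26 h, and to 0 with a period of 6 h, where 3 had an unadjusted p under 0.05.

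The cycle itself differed between the strains for miR-40-3p, with an amplitude of 0.59 in wild type and 0.13 in the mutant (limma adjusted p = 0.00460), against 0.493% of all arms. miR-35-3p (0.66 and 0.19, adjusted p = 0.0210) and miR-37-3p (0.68 and 0.15, adjusted p = 0.0247) did not pass, nor did any other member. The call of miR-40-3p was lost with TMM factors, a pseudocount of 1 and periods of 6 or 8 h, and on omission of the wild-type library of 22 or 23 h or the mutant library of 22, 26 or 29 h, with adjusted p from 4.23e-06 to 0.453 over the other settings. Without the wild-type library of 26 h or the mutant library of 18 h, 3 members were called.

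As a description, the mean log2 profile of the 5p arms (miR-38-5p left out) in the mutant matched that of wild type best when moved back by 3 h (r = 0.94, n = 11 hours), against r = -0.73 at equal hours after plating (n = 14). The mean profile of the 3p arms (miR-41-3p left out) had no such match, with r = -0.15 at 3 h. In wild type the 3p profile followed the 5p profile most closely 1 h later (r = 0.87, n = 13), against 0.53 at the same hour. Values of the arms at an hour come from the same library and share its depth, and neighbouring hours are not independent.

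**Figure D4:**
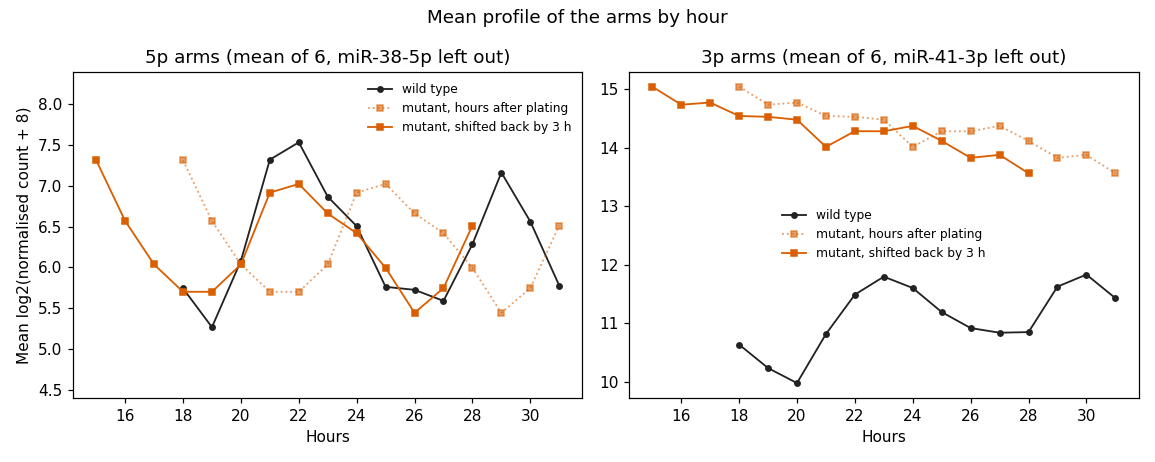
Mean log2(normalised count + 8) of 6 of the 5p arms (left) and 6 of the 3p arms (right) by hour, in wild type (black), in the mutant at its hours after plating (dotted) and in the mutant moved back by 3 h (orange). The moved 5p profile lies near that of wild type (r = 0.94), while the 3p profile of the mutant stays above wild type and falls over the hours.

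Over the sampled hours 5 of the 7 3p arms were called for a fall in the mutant. The summed 3p level fell from 264549 normalised counts at 18 h, the highest of the 14 libraries, to 96283 at 31 h, the lowest. A falling trend was called for 5 members, against 10.1% of all arms. miR-39-3p fell by 0.12 ± 0.02 log2 units per hour (limma adjusted p = 1.42e-06), miR-36-3p by 0.09 ± 0.02, miR-38-3p by 0.08 ± 0.02, miR-40-3p by 0.08 ± 0.01 and miR-35-3p by 0.07 ± 0.02. miR-37-3p had a slope of -0.06 ± 0.02 (adjusted p = 0.0110) and miR-41-3p one of -0.0011 ± 0.037, and neither passed. None of the 5p arms was called with limma in the mutant, and none had an unadjusted p under 0.05. Without the libraries of 28, 29 and 31 h 3 members were called, as without the library of 18 h or with a period of 8 h.

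In wild type no member was called for a trend with limma, against 7.39% of all arms that rose and 15.5% that fell, although 8 of 14 members had an unadjusted p under 0.05. Of these, the 4 of the 3p arms had rising and the 4 of the 5p arms falling slopes. With TMM factors 4 members were called, with DESeq2 size factors 3 and with a period of 6 h 4, and 1 or 2 were called without the wild-type library of 19 or 31 h. The slope of the mutant was lower than that of wild type for the 3p arms of miR-35 through miR-40, by 0.08 ± 0.01 for miR-40-3p up to 0.15 ± 0.03 for miR-38-3p, which made 6 members called against 1.97% of all arms. This comparison of slopes was chosen after the slopes were seen. Each slope used all hours of its strain, so with the shift of 3 h the slopes did not cover the same span of matched hours. The part of this in the slope difference was not tested. Without the mutant libraries of 28, 29 and 31 h the count was 4. Without the wild-type library of 18, 19, 26 or 27 h it was 3, 3, 3 or 2, and without the mutant library of 18 or 31 h it was 2.

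Arms of the same side moved together within a strain. In wild type the pairwise correlations of log2 levels among the 3p arms of miR-35 through miR-40 had a median of 0.95 over 14 hours, and were highest for miR-35-3p with miR-37-3p (0.996). Among the 5p arms, miR-38-5p left out, the median was 0.88. In the mutant the medians were 0.80 for the 3p and 0.79 for the 5p arms, and 0.94 for the 3p arms without the libraries of 28, 29 and 31 h. These values share libraries and depth as above.

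The levels of the abundant 3p arms lay close together, and their order by mean level was not the same in the strains. In wild type miR-37-3p, miR-35-3p, miR-36-3p and miR-39-3p followed each other in mean level, but neighbours in this order kept it in only 7, 11 and 9 of 14 libraries. Below them, miR-39-3p was above miR-38-3p in 14 of 14 libraries, miR-38-3p above miR-40-3p in 12 and miR-40-3p above miR-41-3p in 14. In the mutant, miR-35-3p was above miR-39-3p in 7 of 14 libraries and miR-39-3p above miR-37-3p in 11. From there on the order of miR-37-3p, miR-36-3p, miR-38-3p, miR-40-3p and miR-41-3p held in 14 of 14 libraries.

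The make-up of the 3p pool was compared between strains with a threshold of 0.05 on the p adjusted over the 7 arms, and 3 shares passed. miR-36-3p made up 22.2% ± 1.40 of the summed 3p reads of wild type and 17.0% ± 2.76 of those of the mutant (SD, n = 11 matched hours), lower in 11 of 11 hours (exact sign-flip permutation test, two-sided, p = 0.000977, the smallest that 2048 flips can give, adjusted over the 7 arms 0.00684). miR-35-3p made up 23.4% ± 0.80 and 27.2% ± 4.64, higher in 10 of 11 hours (exact permutation test, adjusted p = 0.0239). miR-40-3p made up 3.92% ± 0.65 and 3.31% ± 0.24, lower in 10 of 11 hours (exact permutation test, adjusted p = 0.0296). The shares of the other 4 arms did not pass. The permutation test fits no curve and takes the hourly differences as independent, which consecutive hours of 1 series per strain need not be. Shares sum to a whole, so a higher share of an arm lowers the others.

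In the mutant libraries of 28, 29 and 31 h the make-up departed from the rest of the strain. miR-35-3p held 29.6% to 37.0% there, against 22.8% to 27.5% in the other 11 mutant libraries. miR-39-3p held 16.1% to 19.4% there, against 23.3% to 28.2%. miR-37-3p held 26.4% to 27.8% there, against 20.4% to 23.1%. None of these ranges met that of the other mutant libraries, and the library of 30 h, between them in time, lay with the rest. The ranges of the other 3p arms overlapped. Without these libraries, over 8 matched hours, miR-35-3p no longer passed, at 23.3% ± 0.73 against 24.8% ± 1.63 (exact permutation test, adjusted p = 0.0547). The shares of the other 6 arms passed there. miR-36-3p (21.8% and 18.3%), miR-37-3p (23.0% and 21.7%) and miR-40-3p (4.04% and 3.28%) were lower in the mutant, and miR-39-3p (22.9% and 25.6%), miR-38-3p (5.01% and 6.27%) and the rare miR-41-3p were higher (exact permutation test, adjusted p from 0.0182 to 0.0456). Their low depth was given above, and its part in the result was not tested.

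**Figure D5:**
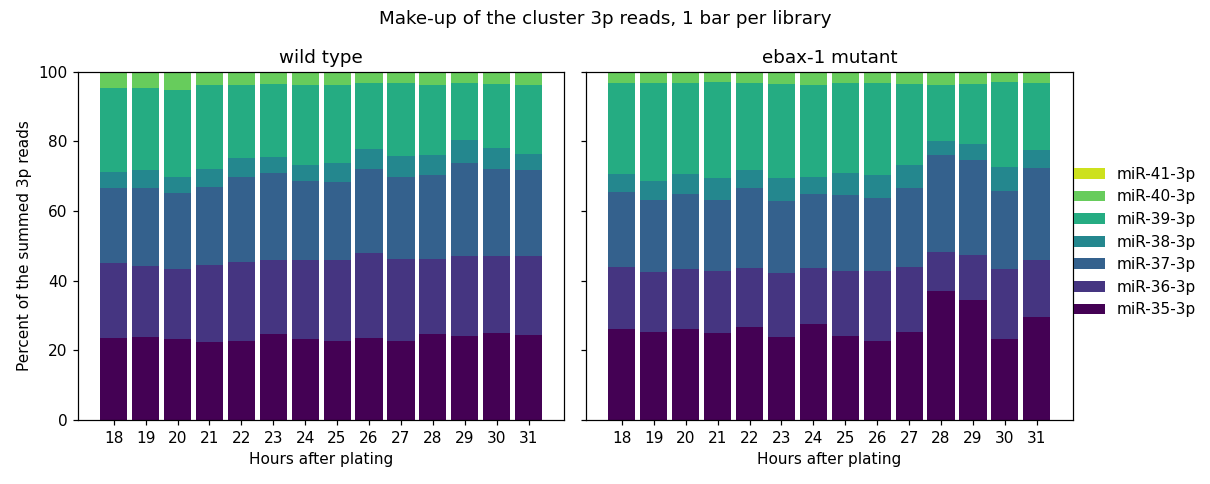
Percent of the summed 3p reads of the cluster held by each 3p arm (stacked, miR-35-3p at the bottom), 1 bar per library by hours after plating, in wild type (left) and the mutant (right). The miR-35-3p share reaches 29.6% to 37.0% in the mutant at 28, 29 and 31 h and stays at 27.5% or below in the other mutant libraries, while miR-41-3p is too rare to be seen.

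miR-42, the family member encoded on the same chromosome at 11889811 to 11889905 outside the cluster, differed between strains in its 3p arm. miR-42-3p had 108, 216 and 320 normalised counts (lowest, median and highest of 11 hours) in wild type and 671, 901 and 1144 in the mutant, with no overlap and a difference of 2.09 ± 0.05 (limma adjusted p = 1.30e-08). miR-42-5p did not pass (-0.32 ± 0.13, adjusted p = 0.193). Among the 8 arms of miR-71, miR-235, miR-247 and miR-788, which the study also tied to EBAX-1 in part from these samples, miR-71-5p and miR-235-3p were higher, miR-71-3p and miR-788-5p were lower and 4 did not pass. For miR-247 and miR-788 the study reported loss through EBAX-1 only in late larvae, from a separate time course that ran to later hours. The matched hours here ended at 28 h of wild type, before that decline. Of 12 arms of the mir-51 family, which also acts in the embryo, miR-51-3p and miR-55-3p were lower and 10 did not pass.

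Because the comparison rests on matched larval age, miRNAs that time larval development were read beside it. By the test of any strain effect lin-4-5p, let-7-5p, miR-48-5p and miR-241-5p did not pass, and miR-84-5p, a relative of let-7 that rises in later larval stages, was lower in the mutant by a log2 difference of -0.75 ± 0.07 (limma adjusted p = 0.00143). On the mean difference alone, miR-48-5p (-0.19 ± 0.04, limma adjusted p = 0.00167) and miR-241-5p (-0.60 ± 0.09, adjusted p = 0.000258) were also lower. The part of a remaining age difference in the results for the cluster was not tested. At the 5 lags from 0 to 4 h each 3p arm kept its direction and its call.

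As a description, the arms outside the cluster whose log2 levels followed the mean of the 7 member 3p arms most closely in wild type were miR-800-3p (r = 0.94), miR-237-5p (0.87), miR-58a-3p (0.79), let-7-5p (0.78) and miR-42-3p (0.76), over 14 libraries and among 201 arms averaging at least 50 normalised counts. In the mutant they were miR-86-5p (0.93), miR-245-3p (0.91), miR-4813-3p (0.90), miR-2-5p (0.90) and miR-233-3p (0.90), among 193 arms. No arm was among the first 5 in both strains.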

How the data were processed

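Small RNAs of 28 libraries were analysed, grouped by strain and hour from the labels. According to the study's methods, the authors trimmed adapters, aligned reads to ce10 with Bowtie through QuasR (tool versions: not given in the sources used here). They counted same-strand reads starting within 3 bp of a miRBase 5′ end. The deposited count table held raw counts of 437 arms. The deposited log2 values were made by the authors as log2 of the count scaled to the mean library total plus 8, which was recomputed within 0.0005. Values are therefore shares of a library, and the added 8 shrinks differences of rare arms.

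limma 3.58.1 in R 4.3.3 fitted the deposited log2 values of 22 matched libraries with a cubic B-spline of 6 components, strain and their interaction, as in the study (14 coefficients, 8 residual degrees of freedom). All 406 arms with a read were adjusted together (Benjamini-Hochberg) and called under 0.01. Shares of the 3p sum were tested by exact sign flips over matched hours and called under 0.05. Folds come from the mean log2 difference. Ratios used the same model. Trends and cycles were fitted to 28 libraries with mutant time moved back by 3 h, so the hours of the strains overlap only in part there. Floors and shares were computed from counts with Python 3.11.15. The correlation of deviations of libraries of the same matched hour was over 0.1 in 11 of 11 pairs (0.33 to 0.92, 205 arms). In 7 of 11 the wild-type library correlated best with its own match. Series that share a course over time correlate in this way, so this does not show that libraries are paired. Matched hours were paired from the study's lag, and the spline fit does not use the pairing.

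Alternatives were the TMM scaling and quasi-likelihood test of edgeR 4.0.16, the size factors and likelihood ratio test of DESeq2 1.42.0, pseudocounts of 1 and 32, a minimum mean of 10, other lags, splines and periods, the matched hour as a block, and each library left out. The omission of the mutant libraries of 28, 29 and 31 h was included. Simulated data were used to check the test of any strain effect with its estimated differences, and the test of a cycle difference. The tests of shape, trend, ratio and share, and of a cycle within a strain, were not simulated. Members, lists and named arms (all 14 members, miR-42, miRNAs tied to EBAX-1, the mir-51 family, larval timing miRNAs and the 5 closest profiles per strain) were chosen with earlier results of these data known. Coordinates come from the WBcel235 annotation, not the ce10 build of the counts.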

Additional observations from a re-analysis of the deposited data

Results flagged for a closer look

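The cycle of miR-40-3p differed between the strains by the interaction test of the fit with a 7 h period, with an amplitude lower by 0.46 on the log2 scale in the mutant (difference -0.46, limma adjusted p = 0.00460). Over 28 fits with a library omitted the amplitude difference ran from -0.50 to -0.42 and the call was lost in 5.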

How the results depend on the processing

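The abundant 3p arms (those of all hairpins but miR-41) kept their direction and call for the strain effect in 16 of 16 other settings and in 22 of 22 fits with a library omitted, and the hairpins of miR-35, miR-36, miR-37, miR-39 and miR-40 kept a higher 3p to 5p ratio in 13 of 13 settings run for it and in the same 22 fits. Members called for any strain effect numbered 6 to 13 over the settings and 6 to 9 over the left-out libraries. The percent of all arms called was worked out at the main setting only, so member counts at other settings cannot be set against it. With the matched hour as a replicate block, which tests the mean difference alone, 8 members were called, and miR-39-5p was the only call that changed among strain effects and ratios. Trends, cycles and shape were not run with the block.

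Members called for a change in shape numbered 5 with TMM factors, 5 with DESeq2 size factors, 5 at a lag of 4 h, 11 at 1 h and 12 at 0 h, and 0 with a pseudocount of 1, with 5 spline components or without the mutant libraries of 28, 29 and 31 h. For the cycle difference the count was 0 with TMM factors, a pseudocount of 1 or periods of 6 and 8 h (5, 5, 3 and 5 under an unadjusted p of 0.05) and 11 with the clock hour of the mutant. Cycle calls were 0 in either strain with a period of 6 h. Wild-type trends were called for 4 members with TMM factors, 3 with DESeq2 size factors and 4 with a period of 6 h, and mutant trends for 3 without the mutant libraries of 28, 29 and 31 h or with a period of 8 h. Without those libraries 6 shares passed, without that of miR-35-3p.

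With 1 library left out, the counts ran from 0 to 3 for shape, 0 to 3 for the cycle difference, 1 to 3 for mutant cycles, 0 to 2 for wild-type trends, 3 to 6 for mutant trends and 2 to 6 for the slope difference. Among differences that were not called, miR-35-5p reversed at lags of 1 h (-0.068, there called) and 2 h (-0.056) and ran from -0.042 to 0.11 over left-out libraries. miR-41-5p reversed at 1 h (-0.011, there called), at 2 h (-0.028) and without the mutant libraries of 28, 29 and 31 h (-0.13), and ran from -0.0089 to 0.19. miR-40-5p was called lower at lags of 0, 1, 2 and 4 h (-0.43 to -0.28) and at a threshold of 0.05, and miR-36-5p at 0 and 1 h (-0.38 and -0.45). At 0 h miR-35-5p and miR-41-5p were called too (0.049 and 0.11). The cause of these changes was not tested. Depth limits miR-41-3p and miR-38-5p.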
